A study of Mus musculus with 6 samples.

Results

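Transcripts of 10 genes of the Hippo pathway were followed in hepatocytes of regenerating mouse liver. The genes were the co-activators Yap1 and Wwtr1, the DNA-binding factors Tead1 and Tead2, the TEAD cofactor Vgll4, the kinases Lats1 and Lats2, the upstream scaffold Nf2, and the junction adaptors Amotl2 and Ajuba. They were chosen by name for their place in the pathway, with earlier results of these data known, and all 10 were found among the 55450 genes counted and had enough reads to be tested. Hepatocytes were isolated by collagenase perfusion from male mice, C57BL/6 and aged 10 to 12 weeks on the sample labels and C57BL/6J and slightly younger in the study's methods, either from undamaged liver (0 h) or 48 hours after PHx, the surgical removal of part of the liver. Each time point had 3 bulk RNA-Seq libraries, all 6 carry PHx as their protocol label, and the 0 h group is undamaged liver, not a sham operation.

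The Hippo pathway restrains organ size. The kinases Mst1 and Mst2 (genes Stk4 and Stk3), with the scaffolds Sav1 and Nf2, activate Lats1 and Lats2, which phosphorylate the co-activators Yap1 and Taz (gene Wwtr1) and keep them out of the nucleus. When the kinases are inactive, Yap1 and Taz enter the nucleus and bind TEAD factors, which carry them to DNA, while Vgll4 competes for the same TEAD surface. Loss of the pathway's kinases or of Nf2 in the liver causes overgrowth. Most of this control acts on phosphorylation and location of the proteins, which RNA-Seq does not measure.

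The depth per library, in reads on genes, was 31419443 to 36346220 at 0 h and 31684152 to 33093006 at 48 h, and 3 counts correspond to 0.0839 to 0.102 CPM (a gene's count scaled to the TMM-normalized size of its library). Hepatocyte transcripts dominated both groups. The 12 hepatocyte markers, among them Alb and Hnf4a, summed to 110000 to 130000 CPM at 0 h and to 72700 to 88500 CPM at 48 h. Markers of other liver cells were present at far lower levels. The 14 endothelial markers summed to 343 to 531 CPM at 0 h and 234 to 268 CPM at 48 h, and the 14 stellate cell and fibroblast markers to 130 to 202 CPM and 93.3 to 116 CPM. The 12 Kupffer cell markers summed to 83.1 to 124 CPM at 0 h and 119 to 147 CPM at 48 h. The 10 cholangiocyte markers summed to 35.5 to 63.6 CPM and 48.1 to 59.7 CPM, and Krt19, Krt7 and Epcam, which define that cell type, had 0 to 4 counts per library. In bulk libraries, a change in the number of cells of a type cannot be told apart from a change in RNA per cell.

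Of the 10 genes, 4 rose by 48 h after PHx (Ajuba, Tead2, Wwtr1 and Tead1), Vgll4 fell, and Yap1, Lats1, Lats2, Nf2 and Amotl2 did not pass the test (edgeR's quasi-likelihood test, Benjamini-Hochberg adjusted p under 0.05). Over all 17037 genes tested, 21.4% rose and 19.3% fell, or 40.7% in either direction, so a call on 5 of 10 genes is close to the background. The median log2 fold change, 48 h over 0 h, was 0.17 for the 10 genes and -0.003 for all genes tested. For those same 5 genes, every library of one time point lay above every library of the other in CPM, which was also true of 52.7% of all genes tested.

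**Figure D1:**
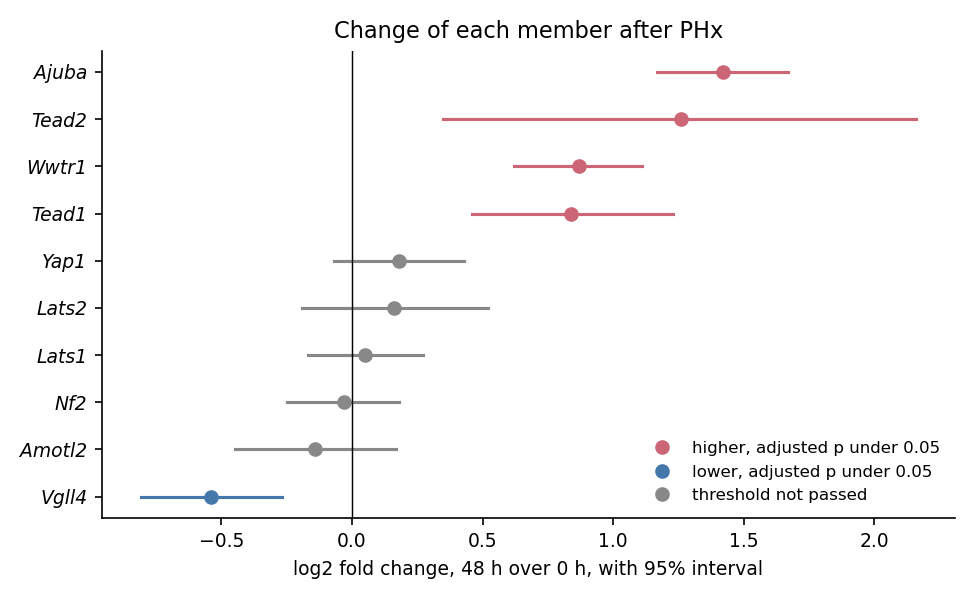
Log2 fold change, 48 h over 0 h (x axis), of each of the 10 genes (y axis), with points for the edgeR estimate and bars for its 95% interval. Ajuba lies farthest to the right at 1.42, Vgll4 is the only gene whose whole interval is below 0, and the intervals of Yap1, Lats1, Lats2, Nf2 and Amotl2 cross 0.

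The sequences before the start sites are shown because TEAD factors bind the letters GGAATG, which read as CATTCC when the motif lies on the other strand, so several of these genes can be read both as regulators and as carriers of that motif. Promoters running from 250 bases before to 50 bases after each start were taken from RefSeq (GRCm38.p6) by symbol, which matched 9 of the 10 genes, all but Tead1. The motif was present on one of the strands in 6 of the 9 genes, namely Ajuba, Wwtr1, Vgll4, Yap1, Amotl2 and Lats2, and was found in 16.6% of the 27025 genes with a promoter (14.7% of 32851 promoters). Wwtr1, Lats2 and Nf2 have 2 starts each in this table, and 7 of the 12 promoters of the 9 genes held the motif, the second Lats2 promoter not among them. Counting the first transcribed base as position +1, the motif began at position -136 in Wwtr1 (-170 from its second start, the same site), -141 in Yap1, -82 in Vgll4, -65 in Amotl2 and 5 in Lats2. Ajuba held it at 2 places, -186 and -164. The AP-1 motif TGANTCA, a palindrome apart from its middle base, was in 0 of these genes' promoters and in 7.81% of all promoters. These are matches of letters and not measured binding. The stretch of each of the 3 genes below is the 250 bases before the start, on the strand of the gene (minus in each case), with the motif in capitals, and a window of 40 bases around the motif is given for Yap1. The Ajuba (chr14:54577662-54577911) and Wwtr1 (chr3:57575911-57576160) stretches lie outside annotated genes, the Vgll4 stretch (chr6:114969204-114969453) lies in an intron of a longer annotated form of that gene, and the Yap1 window is chr9:8004715-8004754.
Ajuba: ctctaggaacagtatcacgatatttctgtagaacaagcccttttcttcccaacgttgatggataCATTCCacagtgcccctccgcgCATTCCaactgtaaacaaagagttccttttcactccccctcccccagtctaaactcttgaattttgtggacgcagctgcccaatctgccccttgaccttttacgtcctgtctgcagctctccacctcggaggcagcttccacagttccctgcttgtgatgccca
Wwtr1: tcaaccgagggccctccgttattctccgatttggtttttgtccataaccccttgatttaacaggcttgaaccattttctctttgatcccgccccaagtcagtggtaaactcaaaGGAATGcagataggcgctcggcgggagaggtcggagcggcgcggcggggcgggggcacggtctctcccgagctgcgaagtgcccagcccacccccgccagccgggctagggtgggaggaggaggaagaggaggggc
Vgll4: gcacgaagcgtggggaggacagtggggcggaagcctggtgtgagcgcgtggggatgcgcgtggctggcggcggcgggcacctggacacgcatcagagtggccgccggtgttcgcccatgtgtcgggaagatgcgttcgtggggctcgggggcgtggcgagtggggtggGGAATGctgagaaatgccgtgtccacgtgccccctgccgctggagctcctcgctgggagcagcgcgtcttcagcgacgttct
Yap1: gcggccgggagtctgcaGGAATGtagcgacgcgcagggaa

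Of the paired co-activators, Wwtr1 rose after PHx while Yap1, the more abundant of them per length of transcript, did not pass the test. Yap1 (ENSMUSG00000053110.13, chr9:7931999-8004596, minus strand) stood at 82.0, 74.6 and 71.7 CPM in the 0 h libraries and at 94.4, 77.5 and 86.3 CPM in the 48 h libraries. The groups overlapped, since the second 48 h library was below the highest 0 h library. The log2 fold change was 0.18 (SE 0.11, adjusted p = 0.237), with a 95% interval of -0.07 to 0.43. Scaling by library size alone, which moves the median of all genes by 0.20, gives Yap1 0.38 with an adjusted p of 0.0191.

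Wwtr1 (ENSMUSG00000027803.14, chr3:57455649-57575910, minus strand), which encodes the Yap1 paralogue Taz, was at 14.9, 13.2 and 15.1 CPM at 0 h and at 27.6, 24.9 and 26.4 CPM at 48 h. Every 48 h library lay well above every 0 h library, and the spread within each group was small. Wwtr1 rose 1.83-fold, a log2 fold change of 0.87 (SE 0.11, 95% interval 0.62 to 1.11, adjusted p = 0.000154). Some marker genes of the liver cell types also differed between the time points. At 48 h, 14 of 14 tested endothelial markers were lower, and of 13 stellate cell and fibroblast markers 3 were lower and 1 higher. Of the tested markers, 2 of 4 for cholangiocytes and 3 of 12 for Kupffer cells were higher and 0 lower, and of 12 for hepatocytes 1 was higher and 5 were lower. Over all genes tested, 21.4% were higher and 19.3% lower, or 40.7% in either direction. The share called was 100% for the endothelial list and 50% for the hepatocyte and cholangiocyte lists. It was 30.8% for stellate cells and fibroblasts and 25% for Kupffer cells, below the share of all genes. Their part in the changes of Wwtr1 and the other genes was not tested.

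The ratio of the paralogues within a library does not depend on how libraries are scaled. On counts per kilobase of exon, the log2 ratio of Wwtr1 to Yap1 was -1.50, -1.54 and -1.29 at 0 h and -0.82, -0.68 and -0.75 at 48 h. Wwtr1 therefore went from 0.367 to 0.594 of the Yap1 level per length, and the groups did not overlap. The difference of 0.69 had a two-sided exact permutation p of 0.1, the smallest that 3 libraries against 3 allow, and 0.3 after adjustment over the 3 paralogue ratios tested.

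**Figure D2:**
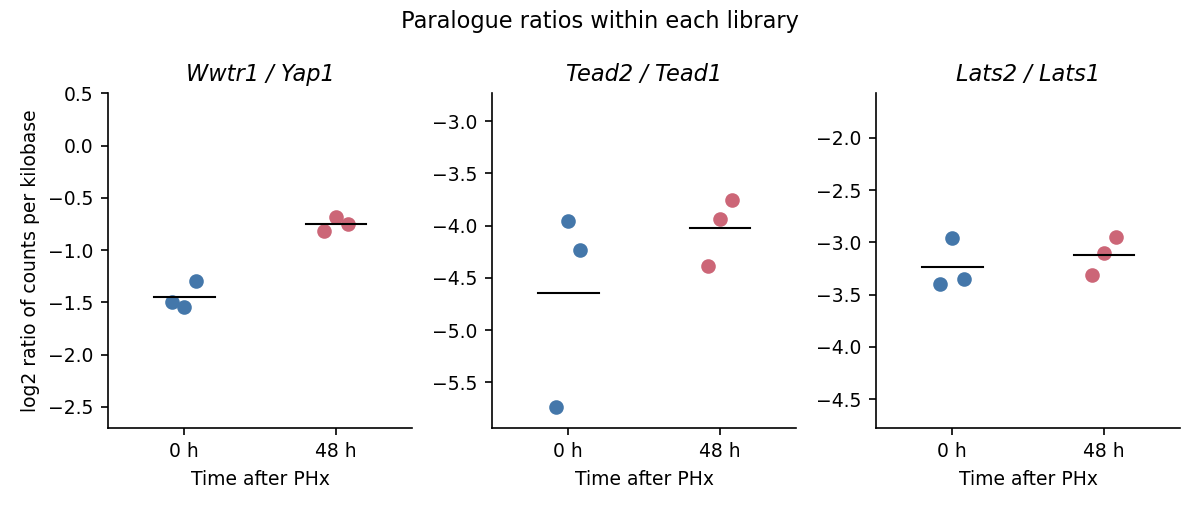
Log2 ratio of counts per kilobase of exon (y axis) for 3 pairs of paralogues at 0 h and 48 h after PHx (x axis), with a point per library and a line at the mean. The panels span the same number of log2 units. For Wwtr1 to Yap1 all 48 h libraries (-0.82 to -0.68) are above all 0 h libraries (-1.54 to -1.29), and for the other pairs the time points overlap.

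The genes whose level followed Yap1 most closely over the 6 libraries were Unc45a, Dnajc18 and Zfp180, with Pearson's r of log2 CPM of 0.972, 0.961 and 0.955 among the 7383 protein-coding genes searched that had a mean of at least 10 CPM. With so many genes searched over 6 libraries this is a description of the likeness. Like Yap1, none of the 3 passed the test between time points (adjusted p = 0.151, 0.148 and 0.523). Because they were picked for likeness to Yap1 in the same libraries, this is not a separate result.

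**Figure D3:**
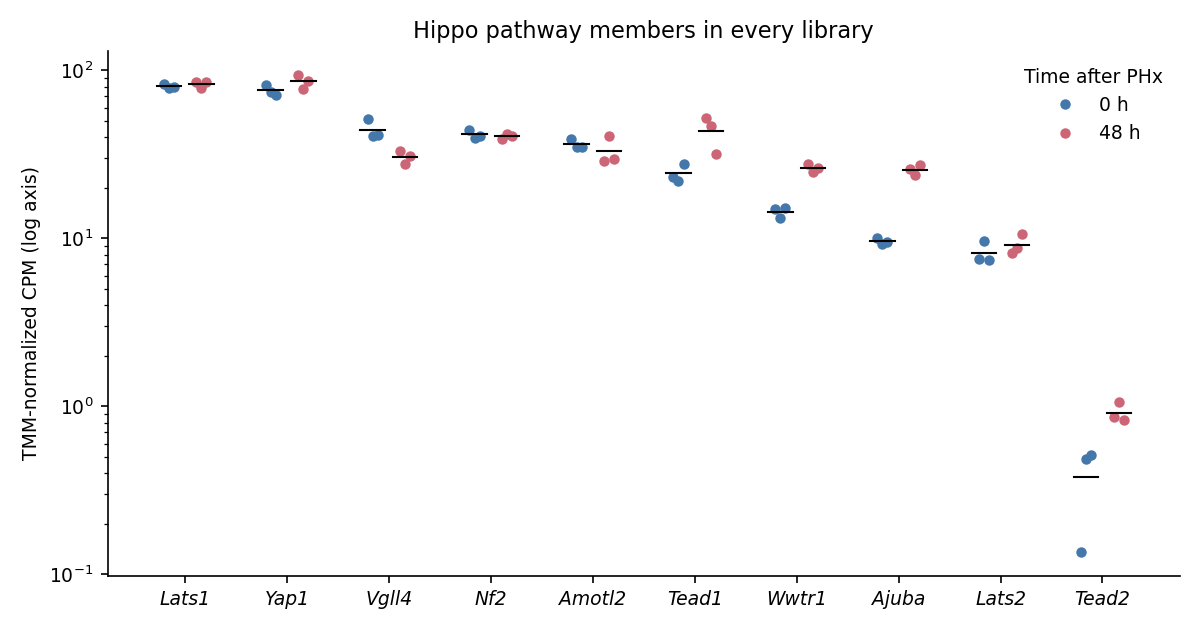
TMM-normalized CPM (y axis, log scale) of each gene (x axis) in each of the 6 libraries, with a point per library and a line at the group mean. All 48 h points lie above the 0 h points for Wwtr1, Tead1, Tead2 and Ajuba and below them for Vgll4. For Tead1 the gap is narrow, from 27.9 CPM at 0 h to 32.0 CPM at 48 h, and the Tead2 libraries run from 0.136 to 1.06 CPM.

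Among the TEAD factors, which bind DNA and recruit the co-activators, Tead1 and Tead2 rose and neither Tead3 nor Tead4 passed the test. Tead1 (ENSMUSG00000055320.17, chr7:112679318-112906807, plus strand) was at 23.2, 22 and 27.9 CPM at 0 h and at 52.2, 46.9 and 32.0 CPM at 48 h. 48 h replicate 3 was nearer to the 0 h libraries than to the other 48 h libraries, although the groups did not overlap. Tead1 rose 1.79-fold, a log2 fold change of 0.84 (SE 0.17, 95% interval 0.46 to 1.23, adjusted p = 0.00322), and leaving out single libraries gave 0.69 without 48 h replicate 1 (adjusted p = 0.0117) to 1.03 without 48 h replicate 3 (adjusted p = 0.000277), all past the threshold.

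Tead2 (ENSMUSG00000030796.17, chr7:45215753-45233644, plus strand), a TEAD factor best known from embryonic tissues, was hardly detected. It had 4, 15 and 17 counts at 0 h and 29, 38 and 29 counts at 48 h, or 0.136, 0.483 and 0.512 CPM and 0.861, 1.06 and 0.828 CPM. The first 0 h library was only just above the floor of 3 counts, and all 48 h libraries were above all 0 h libraries. Tead2 rose 2.39-fold, a log2 fold change of 1.26 (SE 0.41, 95% interval 0.35 to 2.16, adjusted p = 0.0310). This call was lost without the first 0 h library (0.87, adjusted p = 0.0681), without the first 48 h library (1.30, adjusted p = 0.0564) and without the second 48 h library (1.14, adjusted p = 0.0991). Of its exon bases, 0.271% overlap Cd37 on the other strand. The log2 ratio of Tead2 to Tead1 differed by 0.61 between time points, with overlapping groups (two-sided exact permutation test, p = 0.4, adjusted p = 0.5). It rests on the first 0 h library, without which it was 0.06, and it was 0.96 without 0 h replicate 2.

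Tead3, the TEAD gene with the highest level per length in these cells, was at 31.6, 30.6 and 28.4 CPM at 0 h and at 28.7, 26.1 and 29.2 CPM at 48 h, a log2 fold change of -0.11 (SE 0.10, adjusted p = 0.422). Tead4 had 9, 29 and 15 counts at 0 h and 9, 10 and 6 at 48 h, with a log2 fold change of -1.23 (SE 0.47, adjusted p = 0.0615). The make-up of the TEAD family is therefore best seen as a share of the 4 genes' summed level per length (FPKM, the CPM divided by the kilobases of exon). Tead1 made up 26.2%, 24.8% and 31.6% of this sum at 0 h and 46.0%, 45.2% and 34.0% at 48 h, while Tead3 went from 68.9% ± 3.67 (SD, n = 3) to 54.9% ± 6.84 (SD, n = 3). Tead1 was thus the lesser of this pair in all 6 libraries, by a narrower margin at 48 h. Tead2 contributed 1.21% ± 0.669 at 0 h and 2.52% ± 0.377 at 48 h (SD, n = 3). Tead4 contributed 2.40% ± 1.40 at 0 h and 0.864% ± 0.166 at 48 h (SD, n = 3). These shares were chosen after the levels had been seen and were not tested.

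Vgll4, a transcriptional cofactor that binds TEAD factors in place of Yap1 and Taz, fell. Vgll4 (ENSMUSG00000030315.15, chr6:114860628-114969994, minus strand) was at 51.2, 40.8 and 41.2 CPM at 0 h and at 32.9, 27.8 and 31.1 CPM at 48 h. The first 0 h library was the highest, and the lowest 0 h library was still above the highest 48 h library. The level was 1.45-fold higher at 0 h, a log2 fold change of -0.54 for 48 h over 0 h (SE 0.12, 95% interval -0.81 to -0.27, adjusted p = 0.00540). Within libraries the log2 ratio of Wwtr1 to Vgll4 per length went from -1.44 ± 0.17 to -0.04 ± 0.048 (SD, n = 3), so that the 2 genes stood at nearly the same level per length at 48 h. That ratio was chosen after the values had been seen and was not tested. Of the other family members, Vgll1 and Vgll2 had 0 counts in all 6 libraries, and Vgll3 had 3 counts in the first 48 h library and 0 in the other 5.

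The LATS kinases, which phosphorylate Yap1 and Taz, showed no change past the threshold. Lats1 (ENSMUSG00000040021.13, chr10:7681214-7716460, plus strand) was at 83.2, 78.1 and 79.5 CPM at 0 h and at 85.0, 78.9 and 85.7 CPM at 48 h. Its libraries were tightly grouped and overlapped between time points. The log2 fold change was 0.05 (SE 0.098, adjusted p = 0.705), and the 95% interval of -0.17 to 0.27 is among the narrowest of the 10 genes. The sign was negative with upper quartile scaling (-0.03) and with TMM factors from protein-coding genes.

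Lats2 (ENSMUSG00000021959.16, chr14:57689662-57758388, minus strand), itself a target of Yap1 in many cells, was at 7.52, 9.60 and 7.44 CPM at 0 h and at 8.20, 8.75 and 10.6 CPM at 48 h. The groups overlapped, and the log2 fold change was 0.16 (SE 0.16, 95% interval -0.19 to 0.52, adjusted p = 0.448). Of its exon bases, 42.4% are shared on the same strand with the predicted gene Gm49361, which had 0 counts in every library, and it is not known how reads on the shared part were counted. The log2 ratio of Lats2 to Lats1 differed by 0.11 between time points (two-sided exact permutation test, p = 0.5, adjusted p = 0.5), and by 0.03 to 0.25 when single libraries were left out.

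Nf2, which encodes the membrane scaffold Merlin, recruits the LATS kinases. Nf2 (ENSMUSG00000009073.16, chr11:4765845-4849536, minus strand) was at 44.4, 39.6 and 40.7 CPM at 0 h and at 39.2, 41.8 and 40.9 CPM at 48 h. The ranges of the time points lay almost on top of each other. The log2 fold change was -0.03 (SE 0.096, 95% interval -0.25 to 0.18, adjusted p = 0.811), with a positive sign under library size scaling (0.17) and without the first 0 h library (0.01).

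Of the junction adaptors, Ajuba passed the test and Amotl2 did not, and the difference between them was not tested. Ajuba, a LIM-domain protein that binds LATS kinases at cell junctions and lowers their activity, showed the largest log2 fold change of the 10 genes in this test, and Amotl2 is an angiomotin that holds Yap1 in the cytoplasm and is also a Yap1 target. Ajuba (ENSMUSG00000022178.11, chr14:54567472-54577558, minus strand) was at 10.1, 9.31 and 9.46 CPM at 0 h and at 25.8, 23.9 and 27.4 CPM at 48 h. Libraries within a time point differed little, and the gap between the time points was many times that spread. Ajuba rose 2.67-fold, a log2 fold change of 1.42 (SE 0.11, 95% interval 1.17 to 1.67, adjusted p = 6.17e-06). Its relative Limd1, named after its value was seen, had a log2 fold change of 0.01 (adjusted p = 0.919), and the log2 ratio of Ajuba to Limd1 per length went from -1.50 ± 0.041 to -0.10 ± 0.085 (SD, n = 3, not tested).

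Amotl2 (ENSMUSG00000032531.15, chr9:102716672-102733418, plus strand) was at 39.3, 35 and 35.1 CPM at 0 h and at 28.9, 40.7 and 29.8 CPM at 48 h. The second 48 h library was the highest of all and the other two were the lowest, so the groups overlapped. The log2 fold change was -0.14 (SE 0.14, 95% interval -0.45 to 0.17, adjusted p = 0.455), and it was 0.07 under library size scaling. The other angiomotins, named after their values were seen, moved in opposite directions. Amot rose from 18.6 ± 0.652 to 32.3 ± 0.550 CPM (SD, n = 3; log2 fold change 0.80, SE 0.097, adjusted p = 0.000119), and Amotl1 fell from 11 ± 2.84 to 6.20 ± 1.24 CPM (SD, n = 3; log2 fold change -0.82, SE 0.22, adjusted p = 0.0125). For Amotl1 the first 0 h library, at 7.69 CPM, was close to the highest 48 h library, at 7.25 CPM.

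Levels of different genes can be compared only per length, as FPKM. At 0 h Lats1 was highest at 11 ± 0.358 FPKM (SD, n = 3), followed by Yap1 at 8.22 ± 0.574 and Vgll4 at 8.22 ± 1.10, whose ranges overlapped. Nf2 (6.09 ± 0.368) and Amotl2 (5.80 ± 0.385) also overlapped each other, as did Wwtr1 (3.02 ± 0.219) and Ajuba (2.64 ± 0.117). Tead1 (1.80 ± 0.232), Lats2 (1.17 ± 0.176) and Tead2 (0.0788 ± 0.0437) came last in that order, with no overlap between neighbours. On the exon bases not shared with Gm49361, 4016 in all, Lats2 was at 2.04 ± 0.305 FPKM at 0 h, so its place beside Tead1 depends on which length is used.

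At 48 h the order changed in its middle part. Lats1 (11.4 ± 0.514 FPKM) and Yap1 (9.30 ± 0.914) stayed on top, and Ajuba (7.06 ± 0.485) moved from rank 7 to rank 3. Nf2 (5.95 ± 0.190), Vgll4 (5.67 ± 0.476), Wwtr1 (5.51 ± 0.286) and Amotl2 (5.26 ± 1.04) formed a run in which each gene overlapped the next. Tead1 (3.22 ± 0.771), Lats2 (1.32 ± 0.178) and Tead2 (0.192 ± 0.0265) were again the lowest. On its unshared exon bases Lats2 was at 2.28 ± 0.309 FPKM, near the lowest Tead1 library at 2.36 FPKM. The gap between these genes therefore depends on the length used at 48 h as well.

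**Figure D4:**
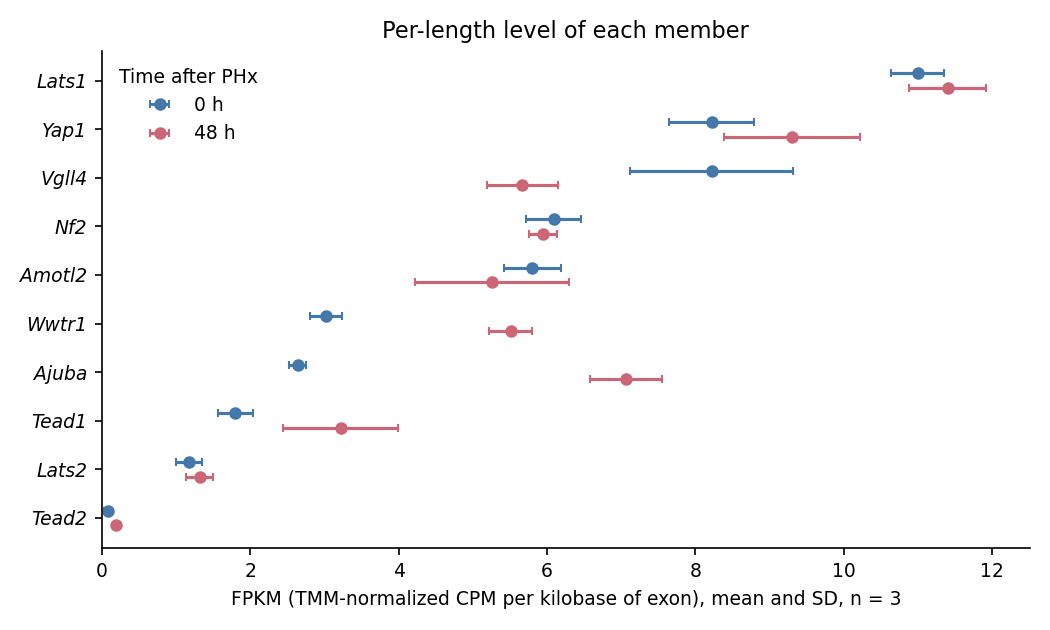
Level per length of each gene in FPKM (x axis), at 0 h and 48 h after PHx, with points for the mean and bars for the SD of 3 libraries, ordered by the 0 h level (y axis). Ajuba goes from 2.64 to 7.06 FPKM and Wwtr1 from 3.02 to 5.51 FPKM, Vgll4 goes from 8.22 to 5.67 FPKM, and Lats1 is highest at both time points.

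Beyond the 10 genes, a list of 41 further Hippo genes had 38 that could be tested, of which 9 rose and 5 fell, with a median log2 fold change of 0.09. The share called was 36.8%, against 40.7% of all genes tested. This order turns with library size scaling, under which 17 genes of the list were higher and 2 lower, 50% against 43.5% of all genes. Without 48 h replicate 1 or 2 the lower count of the list was 2. The lower count of all genes was then 2693 and 2540, against 3288 in the main test. The kinase core with its scaffolds had 2 of 7 genes higher and 0 lower (Stk3, 0.58, and Sav1, 0.39 on the log2 scale, named after their values were seen), counting Lats1 and Lats2 among the 7. Of the exon bases of Sav1, whose adjusted p was 0.0472, 25.4% overlap Atl1 on the other strand. The upstream regulators had 4 of 17 higher and 3 lower, Nf2 included, and the STRIPAK complex, a phosphatase assembly that inactivates Mst1 and Mst2, had 2 of 9 higher and 1 lower.

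The 2 largest log2 fold changes of this wider list were in kinases of the MAP4K family, which can activate LATS kinases in parallel to Mst1 and Mst2. Of the family's 7 members (Map4k1 to Map4k5, Mink1 and Tnik), 2 rose, Map4k2 fell (log2 fold change -0.43, adjusted p = 0.0188), and the other 4, at -0.21 to 0.53, did not pass the test. Over all genes tested 21.4% rose and 19.3% fell, so these counts are close to the background. Members outside Map4k1 and Map4k4 are named after their values were seen. Map4k4 was at 8.85, 12.4 and 11.5 CPM at 0 h and at 63.3, 58.3 and 48.0 CPM at 48 h, and rose 5.17-fold (log2 fold change 2.37, SE 0.15, adjusted p = 1.35e-06). Map4k1, a kinase best known from blood cells, was at 0.511, 0.387 and 0.482 CPM at 0 h and at 3.06, 3.36 and 2.11 CPM at 48 h, and rose 6.14-fold (log2 fold change 2.62, SE 0.28, adjusted p = 5.22e-05). For both genes the 48 h libraries lay far above the 0 h libraries. The STRIPAK member Strip2 had only 3, 2 and 4 counts at 0 h against 14, 16 and 15 at 48 h (log2 fold change 2.12, SE 0.43, adjusted p = 0.00272). Rassf1, an activator of Mst1 and Mst2, rose from 2.93 ± 0.384 to 6.33 ± 0.468 CPM (SD, n = 3; log2 fold change 1.11, SE 0.17, adjusted p = 0.000564), but 42.7% of its exon bases overlap Gm9917 on the other strand and the strand setting of the counts is not known.

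A published list of 22 genes that Yap1 and Taz switch on in many cell types had 19 genes that could be tested, of which 3 rose and 1 fell, with a median log2 fold change of 0.01. That is 21.1% called, against 40.7% of all genes tested. Without 0 h replicate 1, 3 genes of the list fell, while the count over all genes was 2688 against 3288 in the main test. Without Amotl2 and Lats2, which are on it, the counts were 3 higher and 1 lower of 17. Nuak2, an AMPK-related kinase, was at 7.73, 8.64 and 6.44 CPM at 0 h and at 16.2, 20.5 and 16.3 CPM at 48 h, a rise of 2.33-fold (log2 fold change 1.22, SE 0.15, adjusted p = 0.000154). Gadd45a, a growth arrest and DNA damage gene, was at 4.87, 2.29 and 2.50 CPM at 0 h and at 8.46, 13.8 and 5.94 CPM at 48 h (log2 fold change 1.55, SE 0.35, adjusted p = 0.00498), with 19.1% of its exon bases overlapping a gene on the other strand. Its 48 h libraries were more scattered than those of Nuak2 but did not overlap the 0 h libraries. The remaining gene that rose was Crim1 (0.90, SE 0.14, adjusted p = 0.000587), named after its value was seen.

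Igfbp3, a binding protein of insulin-like growth factors, was the gene of this list that fell, from 2.89, 4.29 and 4.76 CPM at 0 h to 0.564, 0.615 and 0.6 CPM at 48 h. It was 6.68-fold higher at 0 h, a log2 fold change of -2.74 (SE 0.26, adjusted p = 2.29e-05). The 14 endothelial markers given above were all lower at 48 h as well, and the part of endothelial RNA in the Igfbp3 level was not tested. The most widely used readouts of Yap1, Ccn1 and Ccn2 (also called Cyr61 and Ctgf), are named here after their values were seen. Ccn1 was at 74.7, 66.9 and 80.1 CPM at 0 h and at 53.0, 128 and 93.3 CPM at 48 h (log2 fold change 0.31, SE 0.25, adjusted p = 0.352), and Ccn2 did not exceed 0.870 CPM in any library (log2 fold change -0.41, SE 0.38, adjusted p = 0.421), with 23.2% of its exon bases overlapping Gm15270 on the other strand.

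**Figure D5:**
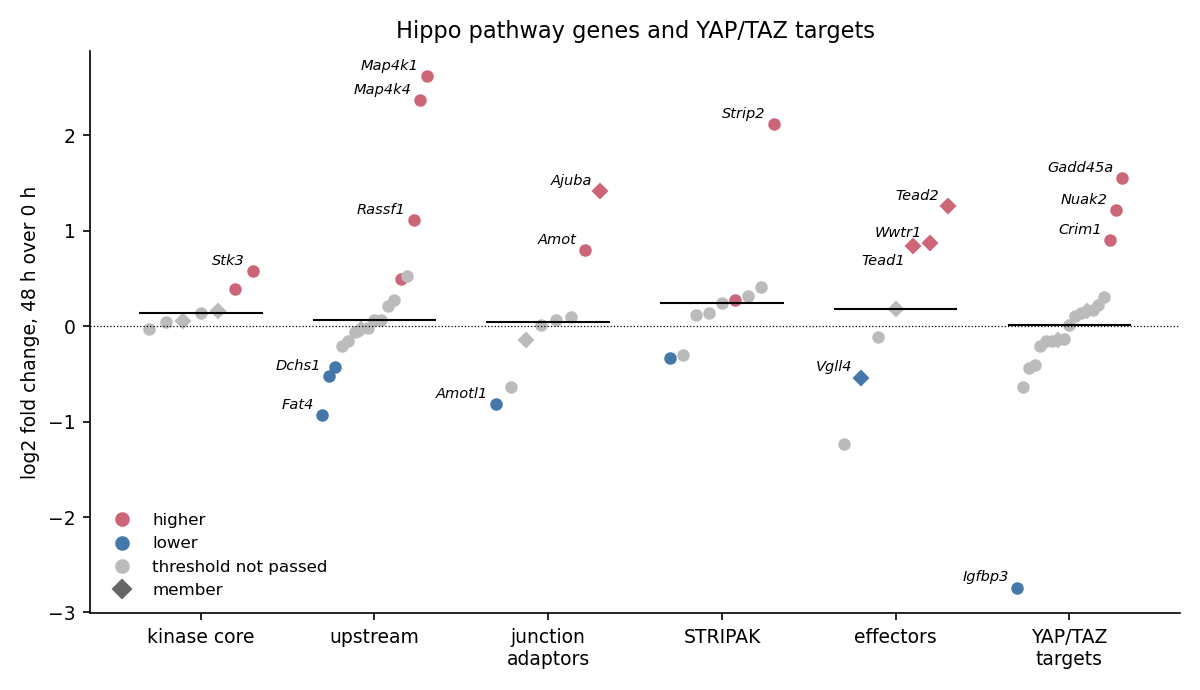
Log2 fold change, 48 h over 0 h (y axis), of every tested gene of 5 groups of Hippo genes and of the Yap1 and Taz target list (x axis), with diamonds for the 10 genes, colour for the test result and a line at each group's median. Map4k1 (2.62), Map4k4 (2.37) and Strip2 (2.12) are the highest points, Igfbp3 (-2.74) is the lowest, and all 6 medians lie between 0.01 and 0.24.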

How the data were processed

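Counts of reads per gene were measured in 6 bulk RNA-Seq libraries, grouped by the time point and replicate number of their labels. The authors deposited raw counts per gene, without normalization; the submitters' processing notes name FastQC 0.11.5, Trim Galore 0.6.4, STAR 2.6, HTSeq 0.12.4, DESeq2 and mm10, and the counting mode and strand setting are not given in the sources used here. Lines for reads on no gene (24.3% to 32.7% of reads) and ambiguous reads (4.27% to 5.29%) were left out. All 55450 identifiers matched GENCODE M21.

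From these counts, TMM factors (0.914 to 0.950 at 0 h, 1.02 to 1.11 at 48 h) and edgeR 4.0.16 quasi-likelihood tests in R 4.3.3 were computed for 17037 genes that reached 10 counts in 3 or more libraries, with Benjamini-Hochberg adjustment. The SE is the log2 fold change over the square root of F. FPKM is TMM-normalized CPM per kilobase of merged exons. Paralogue ratios used counts plus 0.5. The code was tested on simulated data.

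The 10 genes and all lists were chosen with earlier results of these data known. Named outside the 10 are genes of the wider Hippo and target lists with an adjusted p under 0.05 and a log2 fold change of at least 1 in size, the other TEAD and VGLL genes, the 3 genes most like Yap1, and those said to be chosen after their values were seen. Of the cell type markers only a few are named, to describe a list or its level, whatever their change. Libraries of a time point differed by more than counting noise (mean chi-square per gene 25.8 or more). The labels name no animals, and the study describes the 3 libraries of a time point as biological replicates, each from a separate hepatocyte preparation. Floors cover counting error only. Alternatives were other scalings, filters, DESeq2 1.42.0, limma-voom (limma 3.58.1), a replicate block and leaving out each library.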

Additional observations from a re-analysis of the deposited data

How the results depend on the processing

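Of 159 values of the 10 log2 fold changes under the alternatives, 150 kept their direction and side of the threshold. Ajuba (1.34 to 1.62), Wwtr1 (0.79 to 1.07), Tead1 (0.69 to 1.04) and Vgll4 (-0.62 to -0.34) did so in all 16. With library size only, which shifts the median of all genes by 0.20, 17 genes of the wider Hippo list were higher and 2 lower, Yap1 was at 0.38, Nf2 at 0.17 and Amotl2 at 0.07. Lats1 was at -0.03 with upper quartile factors and at 0 (just negative) with TMM factors from protein-coding genes, an alternative added after seeing the data. Leaving out single libraries, Nf2 ran from -0.08 to 0.01, the latter without 0 h replicate 1. Requiring a log2 fold change of at least 1 in size, which removes smaller changes by construction, left 2 of the 10 genes higher and 0 lower, and 4 higher and 0 lower of the wider list. The share of all genes past that size is not given here, so these counts cannot be set against a background. Leaving out single libraries gave 2 to 7 wider-list genes lower, with 2 without 48 h replicate 1 or 2 and 3 without replicate 3 of either time point, and 1 to 3 target genes lower, with 3 without 0 h replicate 1. Calls over all genes fell as well. The main test had 3288 of all genes lower, and leaving out single libraries gave 2540 to 3166. The count was 2693 and 2540 without 48 h replicates 1 and 2, and 2688 without 0 h replicate 1. The log2 ratio of Tead2 to Tead1 was 0.24 with 5 in place of 0.5 added to the counts and 0.06 to 0.96 without single libraries, that of Wwtr1 to Yap1 0.65 to 0.77 over its alternatives. Leave-one-out values of Tead2 ran from 0.87 to 1.53, and it could not be tested at 1 CPM or more in 3 libraries. Same-numbered libraries share only a number (correlations of deviations -0.138 to 0.0335, with 2 of 6 libraries best with their own number). With the replicate block, 3 wider-list genes were lower, no call on the 10 genes changed, and 3237 of all genes were higher and 2884 lower. Where a value moved otherwise, the cause was not tested. Depth limits Tead2, Tead4, Strip2 and Ccn2, which had under 40 counts per library.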
